A study of Danio rerio with 4 samples.

Results

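The Notch pathway and its Hairy and Hey target genes were followed in zebrafish embryos with and without functional tbx1, a T-box transcription factor gene. The genes were chosen by symbol and not by their values, though earlier results of these data were known. The symbols covered Notch receptors, Delta and Jagged ligands, lfng, mib, numb genes, rbpj genes, nrarp genes, and the her, hes and hey genes. This gave 46 of the 32538 genes in the deposited table, namely 8 ligands, 4 receptors, 4 genes that act on ligands or receptors, 3 rbpj genes, 2 nrarp genes, 3 hey genes and 22 her or hes genes. A comparison between genotypes was possible for 37 of them, those with a mean of at least 1 FPKM (fragments counted per length of gene and per size of library) over the libraries. RNA came from embryos of 6 somites, 12 h after fertilization. Controls were wild type and mutants carried the vgo allele of tbx1, with 2 libraries of polyadenylated RNA in each group. The tail tip and a little yolk had been cut from each embryo to genotype it, and the tail tip holds tailbud tissue, in which several of these genes are active. The labels do not say whether a library was a pool or whether controls were siblings of the mutants, so the p-values below rest on the spread between libraries alone, and part or all of that spread may be technical.

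Notch signalling passes between cells in contact. A Delta or Jagged protein on one cell binds a Notch receptor on the next, the receptor is cleaved, and its intracellular part enters the nucleus and joins Rbpj on DNA to switch on Hairy and Hey genes, which encode helix-loop-helix repressors. In zebrafish embryos of this age the pathway keeps the segmentation clock of the presomitic mesoderm in step, through her1, her7 and dlc, and limits how many neural plate cells become neurons, through dla, dld and her4 genes. Some her genes act without Notch input, such as her5, which with its neighbour her11 marks the region between midbrain and hindbrain.

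The libraries held RNA of many tissues. Of 23 marker genes of neural plate, mesoderm, epidermis, blood, hatching gland, endoderm and yolk layer, 22 had a mean of at least 1 FPKM. The exception was the endoderm gene sox32 at 0.313 FPKM. Where a pair of values is given for a genotype, library 1 comes first and library 2 second. tbx1 RNA, the check of the labels, stood at 9.08 and 9.14 FPKM in wild type against 4.91 and 4.52 FPKM in mutants, without overlap. Its log2 difference of -0.88 (SE 0.0910), in the fit described below, gave an adjusted p of 0.227 in limma (unadjusted p = 0.000287), so the mutated gene itself did not pass the adjusted threshold of 0.05. Depth was roughly estimated from the most common ratio between libraries among the lowest values. It came to 0.841 of control 1 for control 2, 0.818 for mutant 1 and 0.722 for mutant 2. The most common ratio was held by few genes, such as 186 of 5202 for mutant 1, and read totals were not used here. Each value came with the authors' 95% interval. For the tested Notch and Hairy/Hey genes the half-width of this interval, as a share of the value, was 6.33% at the median in control 1, 7.07% in control 2, 6.69% in mutant 1 and 6.88% in mutant 2. Of the 148 values, however, 54 lay outside their own interval, a share of 36.5% against 26.0% over all genes tested, so these bounds give the order of the precision and no test.

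Levels spanned a wide range, and among the tested genes Hairy genes held both ends of it, her9 and her4.3. FPKM is a value per length, so genes can be ranked. her9, a relative of mammalian Hes4, was highest, at 162 and 152 FPKM in wild type against 169 and 144 FPKM in mutants. her6, a relative of Hes1, followed at 115 and 102 FPKM in the wild-type libraries, compared with 124 and 108 FPKM in the mutant ones. These 2 genes, lfng, her8a, hes6, her2 and nrarpa made up the 7 genes with a mean of at least 50 FPKM. Another 17 had means from 10.6 FPKM (dlb) to 47.0 FPKM (notch1a, listed with a locus under 300 bp), and 9 of the tested genes had means under 5 FPKM. Neighbours in this order mostly ran together: for 30 of the 36 neighbouring pairs the ranges over the 4 libraries overlapped.

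**Figure D1:**
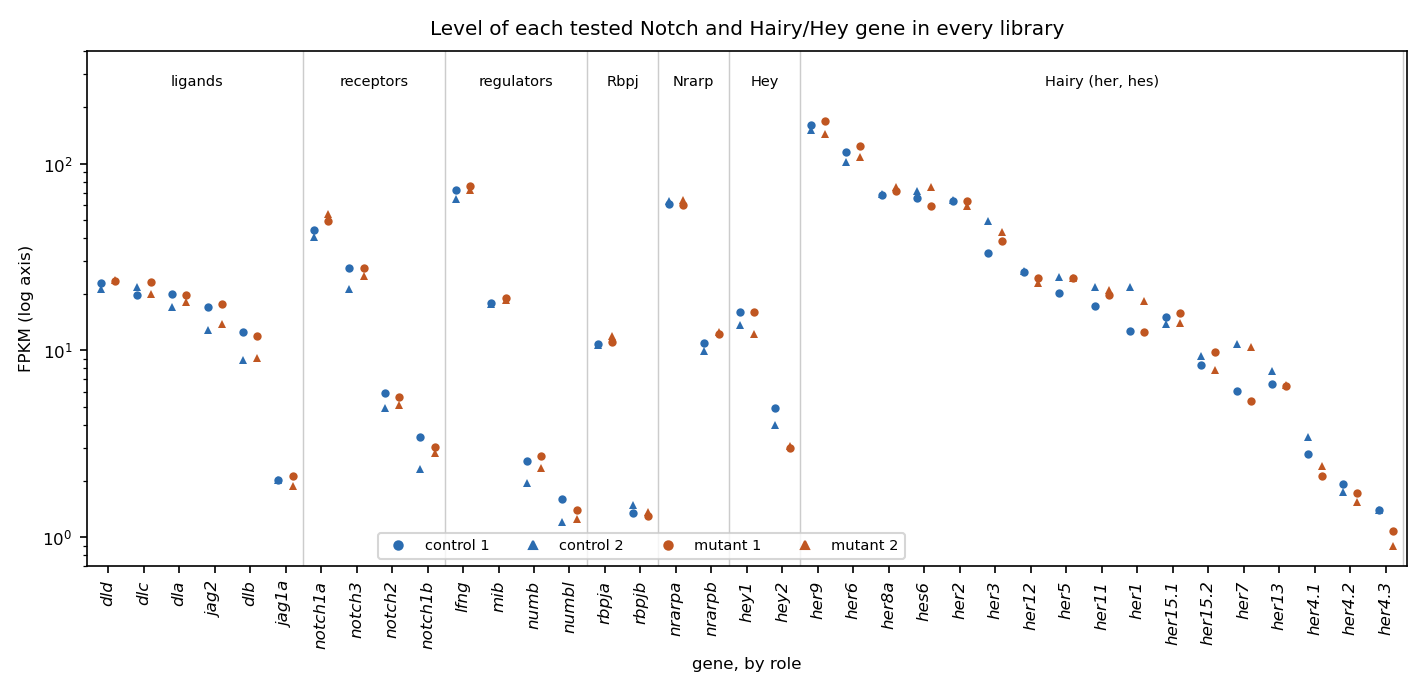
FPKM of the 37 tested Notch and Hairy/Hey genes on a log axis, by role, with 1 point per library (blue, control; orange, mutant; circle, library 1; triangle, library 2). Mutant and control points lie close together for nearly every gene, and her7 and her1 are split by library number, with the triangles high in both genotypes.

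Mutants and controls were compared gene by gene on the log2(FPKM + 0.5) scale, in a limma fit over 13448 genes; differences are mutant minus control. None of the 37 tested genes passed an adjusted p of 0.05 (0 of 37, each with an adjusted p of 1.0), where 0.0669% of all genes did. An unadjusted p under 0.05 was found for 3, hey2, notch1a and nrarpb, which is 8.11% of the 37 against 1.99% of all genes tested. The median difference of the 37 genes was 0.01 and that of all genes 0.02. The differences ran from -0.48 (hey2) to 0.28 (notch1a), and 34 of 37 (91.9%) lay within 0.3 of 0, beside 94.3% of all genes. Mutant and control values did not overlap for 13 of the 37 genes, which is 35.1% against 24.8% of all genes. The mutants were higher in 7 of these (notch1a, nrarpb, lfng, mib, dld, rbpja and her8a) and lower in 6 (hey2, her4.1, her4.2, her4.3, her12 and her13). her4.3 is among the 6 only because its higher controls took it past the minimum level. The corresponding shares over all genes were 15.6% above and 9.14% below.

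Which genes had an unadjusted p under 0.05, 3 in the main fit, changed with the library left out. With 1 library left out, the difference of notch1a lay between 0.22 and 0.35, and that of hey2 between -0.63 and -0.34. Their signs could not turn, since the groups did not overlap. Without control 1 there were again 3, now her4.1, notch1a and nrarpb. Without control 2 only hey2 was left, without mutant 1 only notch1a, and without mutant 2 the number was 0. With 2 libraries in each group the smallest p of an exact permutation test would be 0.333, so single genes were judged by limma's pooled spread.

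**Figure D2:**
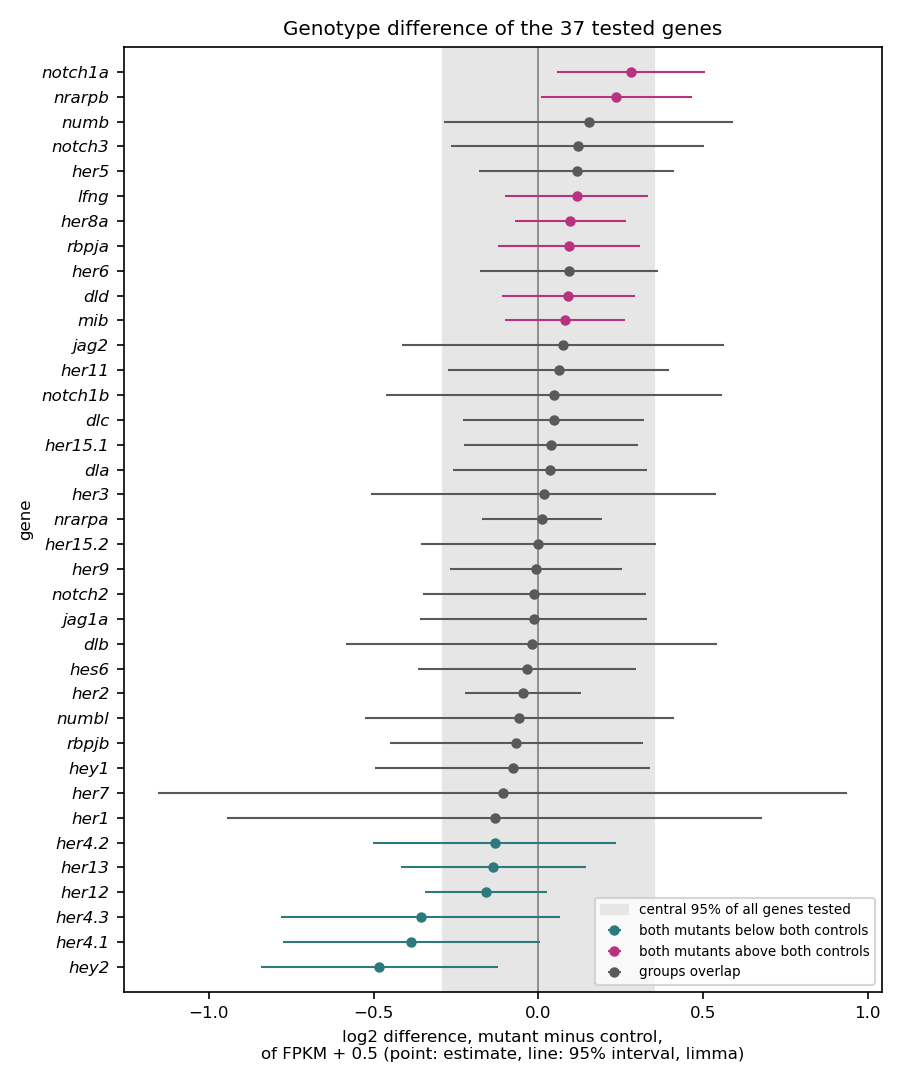
Mutant minus control difference of log2(FPKM + 0.5) for each of the 37 tested genes, in order of size, with the limma estimate (point) and its 95% interval (line). Colour gives whether both mutant libraries lie above or below both controls, and grey shading marks the central 95% of all genes tested (-0.29 to 0.35), outside which lie hey2, her4.1 and her4.3. her4.3 was tested only because its controls were higher.

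The ligands lay close together in the 2 genotypes. dld, a Delta gene of neural plate and presomitic mesoderm, was at 23.1 and 21.2 FPKM in wild type against 23.4 and 23.9 FPKM in mutants (log2 difference 0.09, SE 0.0769, 95% interval -0.11 to 0.29). Both mutants lay just above both controls. dlc, the Delta gene that cycles with the clock, was at 19.9 and 21.9 FPKM in wild type against 23.2 and 20.1 FPKM in mutants, with the groups overlapping (0.05, interval -0.23 to 0.32). dla had a log2 difference of 0.03, jag2 of 0.08, dlb of -0.02 and jag1a of -0.01, also with overlap. jag1b and dll4, a ligand of blood vessels, had means under 1 FPKM and were not tested. Their highest value was 1.24 FPKM, for jag1b in mutant 1.

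By listed FPKM, notch1a and notch3 stood above notch2 and notch1b among the receptor genes, though the notch1a value comes from a short locus. notch1a (ENSDARG00000096282, Zv9 chromosome 21 from 5088099 to 5088347 as the table gives it) was at 44.3 and 40.4 FPKM in the wild-type libraries, compared with 49.3 and 53.9 FPKM in the mutant ones. Both mutants were above both controls, at 1.22 times the control mean (log2 difference 0.28, SE 0.0856, interval 0.06 to 0.51, unadjusted p = 0.0240, adjusted p = 1.0 in limma). The locus spans under 300 bp, far less than a receptor gene, so its level stands for a fragment only. Of its 4 values 0 lay inside their own deposited interval. The same held for notch3, nrarpa, nrarpb, rbpja, mib, hey1, her2, her3, her13 and her15.1. notch3 followed with 27.6 and 21.2 FPKM in wild type against 27.7 and 25.0 FPKM in mutants, which overlapped (0.12, interval -0.26 to 0.50). notch2 (mean 5.39 FPKM) had a difference of -0.01 and notch1b (mean 2.90 FPKM) of 0.05.

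Of the genes that act on ligands and receptors, the most abundant was lfng, which encodes the Fringe enzyme that adds sugars to Notch. It stood at 72.1 and 64.4 FPKM in wild type against 75.5 and 72.4 FPKM in mutants (log2 difference 0.12, SE 0.0825, interval -0.10 to 0.33), with mutant 2 only just above control 1. mib, named mind bomb, encodes the ubiquitin ligase that lets Delta be taken up by the cell that sends the signal. Its values were 17.9 and 17.8 FPKM in the wild-type libraries, compared with 19.2 and 18.6 FPKM in the mutant ones (0.08, SE 0.0699, interval -0.10 to 0.26), again without overlap and within the interval of no difference. numb and numbl, relatives of the fly gene whose product dampens Notch in a daughter of a dividing cell, had means of 2.39 and 1.36 FPKM and differences of 0.15 and -0.06, with overlap. rbpja, which encodes the DNA-binding partner of the cleaved receptor, was at 10.9 and 10.7 FPKM in wild type against 11.1 and 11.9 FPKM in mutants (0.09, interval -0.12 to 0.31). Its paralog rbpjb had a mean of 1.38 FPKM and a difference of -0.07, and rbpjl was listed at 0 in all 4 libraries.

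The nrarp genes encode small ankyrin-repeat proteins that are switched on by Notch and feed back on it, and the rarer of the pair was among the 3 genes with an unadjusted p under 0.05. nrarpb (ENSDARG00000018958, Zv9 chromosome 5 from 69012102 to 69015469) was at 10.9 and 9.90 FPKM in wild type against 12.2 and 12.5 FPKM in mutants. Both mutants exceeded both controls, at 1.19 times the control mean (log2 difference 0.24, SE 0.0872, interval 0.01 to 0.47, unadjusted p = 0.0447, adjusted p = 1.0 in limma). For this gene, as for nrarpa, 0 of 4 values lay inside their own interval. nrarpa, on chromosome 10, was at 60.7 and 62.9 FPKM in the wild-type libraries, compared with 60.3 and 64.2 FPKM in the mutant ones, a difference of 0.01 (interval -0.17 to 0.19) with the groups overlapping; the difference between the paralogs' responses was not tested.

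nrarpb lies on the chromosome of tbx1, with 4 more of these genes: dlb at 21.4 Mb from tbx1, notch1b at 51.7 Mb, nrarpb at 52.1 Mb, and her1 and her7 at 54.8 Mb. Of the 779 tested genes on chromosome 5, 8.34% had an unadjusted p under 0.05, against 1.99% of all genes; among the 5 listed here nrarpb was the only one, and the other 4 overlapped between genotypes. A difference at a gene on this chromosome that comes from loss of tbx1 cannot be told apart from one carried along with the mutant chromosome.

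hey2 had the largest difference among the 37 genes. This Hey repressor gene, also called gridlock after the zebrafish mutant with a blocked aorta, lies on Zv9 chromosome 20 from 39614523 to 39622047 (ENSDARG00000013441). Its values were 4.94 and 3.97 FPKM in wild type against 2.99 and 3.06 FPKM in mutants, both mutants below both controls. The mean was 4.45 ± 0.689 FPKM in wild type and 3.03 ± 0.0543 FPKM in mutants (SD, n = 2 each), which is 0.680 of wild type. The log2 difference was -0.48 (SE 0.137, interval -0.84 to -0.12, unadjusted p = 0.0188, adjusted p = 1.0 in limma). With each library left out in turn it lay between -0.63 and -0.34. Its sign could not turn, since both mutants lay below both controls. The authors' relative half-width for hey2 went from 10.3% in control 1 to 17.3% in mutant 2. hey1, more abundant, was at 16.0 and 13.7 FPKM in wild type against 16.0 and 12.2 FPKM in mutants (-0.08, interval -0.50 to 0.34), and heyl was near 0, with no value above 0.0345 FPKM.

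A list of vessel and blood progenitor genes was set beside hey2, since hey2 is used in vessel precursors. In RNA of many tissues together, fewer cells of a type and less RNA per cell cannot be told apart. Of 16 listed genes 10 were tested, 8 of them higher and 2 lower in the mutants (median 0.09), with 0 at an unadjusted p under 0.05. The summed level of the list was 167 and 147 FPKM in the wild-type libraries, compared with 176 and 154 FPKM in the mutant ones. The progenitor genes etv2 (log2 difference 0.05) and lmo2 (0.12) were the most abundant, and the lowest p belonged to spi1 (0.34) and egfl7 (0.30). spi1 had a control mean of 0.967 FPKM, so it was tested, and is counted among the 8, only because the mutants were higher. Vessel genes of the list differed in level. Means were under 1 FPKM for cdh5 (0.0777 FPKM), tie1 (0.409 FPKM), kdrl (0.419 FPKM), tie2 (0.407 FPKM) and fli1b (0.560 FPKM). Higher means were found for fli1a (8.40 FPKM), kdr (6.89 FPKM), egfl7 (4.55 FPKM) and flt4 (2.37 FPKM). The part of these cells in the hey2 value was not tested.

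The her4 copies and their neighbour her12 stood together on chromosome 23, within 26.1 kb (Zv9, from 21739063 to 21765164), and mostly lay lower in the mutants. These are relatives of mammalian Hes5; her4 genes respond to Notch in the neural plate and her12 is used in presomitic mesoderm. her12 was at 26.4 and 26.5 FPKM in wild type against 24.3 and 22.98 FPKM in mutants (log2 difference -0.16, SE 0.0706, interval -0.35 to 0.03, unadjusted p = 0.0773 in limma). her4.1 was at 2.79 and 3.43 FPKM in wild type against 2.11 and 2.40 FPKM in mutants (-0.39, SE 0.149, interval -0.78 to 0.01, unadjusted p = 0.0521 in limma). her4.3 was at 1.40 FPKM in both controls and 1.08 and 0.893 FPKM in the mutants (-0.36, SE 0.161, interval -0.78 to 0.07, unadjusted p = 0.0815 in limma). Its mutant mean was under 1 FPKM, so it was tested only because the controls were higher. For each of these 3 genes both mutants were below both controls, with an adjusted p of 1.0 in limma.

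All 4 tested genes of this cluster, her12, her4.1, her4.2 and her4.3, had both mutants below both controls, as did 9.14% of all genes tested. her4.3 is among these 4 only because its controls were higher. Of the 2 untested copies her4.5 lay below as well and her4.4 above, at 0.729 and 0.799 FPKM in the wild-type libraries, compared with 1.10 and 0.908 FPKM in the mutant ones. her4.2 (-0.13) had an interval of -0.50 to 0.24. Whether her12, which is not a her4 copy, varies independently of the her4 copies was not tested. The her4 copies are so alike, a likeness not computed here, that reads can be shared or split among them. They are not independent measurements. The values of the 5 her4 copies were therefore also summed, a choice made after seeing the data. The sum was 7.82 and 8.48 FPKM in wild type against 6.98 and 6.56 FPKM in mutants (log2 difference -0.25, SE 0.0929, interval -0.49 to -0.01). Its unadjusted p was 0.0463 and its adjusted p 1.0 in limma. Precision was poor, with relative half-widths of 19.8% for her4.1 in control 1 and 29.5% for her4.3 in mutant 2.

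**Figure D3:**
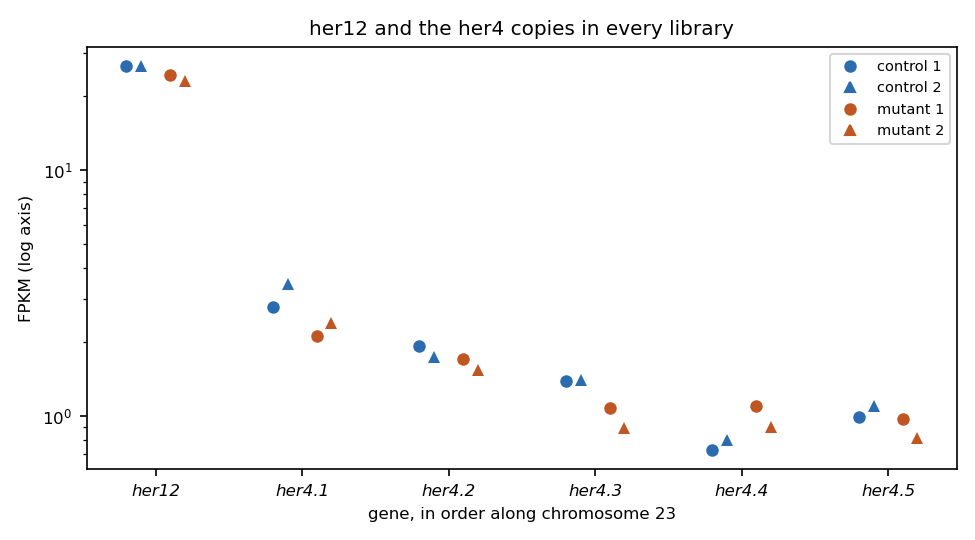
FPKM on a log axis of her12 and the 5 her4 copies, in their order along chromosome 23, in each library (blue, control; orange, mutant; circle, library 1; triangle, library 2). Both mutant points lie below both control points in 5 of the 6 genes, 4 of them tested, and above them for her4.4.

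Genes of neural plate and early neurons were set beside her4, whose repressors hold neuron formation back. Of 19 listed genes 16 were tested, 8 higher and 8 lower in the mutants (median -0.02), with 0 at an unadjusted p under 0.05. The neural plate factors sox19a (log2 difference 0.06) and sox3 (0.01) were the most abundant of them. With sox2 they summed to 427 and 432 FPKM in wild type against 438 and 448 FPKM in mutants, most of the list's total of 538 and 521 FPKM against 541.5 and 543 FPKM. The other 16 genes, split off after the values were seen, summed to 111 and 89.4 FPKM in the wild-type libraries, compared with 103.5 and 95.1 FPKM in the mutant ones, which overlapped. ebf3 (-0.30) and coe2 (0.13) had the lowest p. ebf3 had a mutant mean of 0.995 FPKM, so it was tested only because the controls were higher. The part of neural tissue in the her4 values was not tested.

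Many Hairy genes sit side by side: 17 of the 46 genes lay in 6 clusters within 50 kb of each other, all of them her or hes genes. Outside the her4 cluster these neighbours overlapped between genotypes, save her13. her2, her15.1 and her15.2 on chromosome 11 had differences of -0.05, 0.04 and 0.00. her5 and her11 on chromosome 14 had 0.12 and 0.06. her13, a Hes6 relative on chromosome 15, was at 6.64 and 7.73 FPKM in the wild-type libraries, compared with 6.41 and 6.54 FPKM in the mutant ones (-0.14, interval -0.42 to 0.15), while its neighbour her8.2 was under 1 FPKM in every library. hes2.1 and hes2.2 on chromosome 8 were nearly silent, with no value above 0.147 FPKM. Of the single genes, her8a was at 68.2 and 68.6 FPKM in wild type against 71.6 and 74.9 FPKM in mutants (0.10, interval -0.07 to 0.27), while her9 (-0.01), her6 (0.09), hes6 (-0.03) and her3 (0.02) overlapped.

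The clock genes her1 and her7 varied more between libraries of one genotype than between genotypes. They lie within 19.8 kb on chromosome 5 and encode the Hairy repressors whose cycling sets the pace of somite formation. her7 was at 6.06 FPKM in control 1 and 10.8 FPKM in control 2, and at 5.38 FPKM in mutant 1 and 10.4 FPKM in mutant 2. her1 was at 12.7 FPKM in control 1, 21.7 FPKM in control 2, 12.5 FPKM in mutant 1 and 18.3 FPKM in mutant 2. In both genes the libraries numbered 2 were high and those numbered 1 low, in either genotype, and the genotypes overlapped. The differences between library 2 and library 1 were 0.79 and 0.89 on the log2 scale for her7 in controls and mutants, and 0.75 and 0.53 for her1. The genotype differences were -0.11 for her7 (SE 0.398, interval -1.15 to 0.94) and -0.13 for her1 (SE 0.309, interval -0.94 to 0.68). Differences of either sign inside these intervals were compatible with the data at this spread, which includes the difference between library numbers. A fit with a replicate block gave the same differences, with an SE of 0.0732 for her7 and 0.0786 for her1. The labels give the library number no meaning, so the fit without a block was kept. The sign of both genotype differences turned positive without control 2 or without mutant 1, fits in which the library numbers no longer match between genotypes.

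Many tailbud and presomitic genes were high in the same libraries as her1 and her7. Of 16 tailbud genes 11 were tested, and 9 were higher and 2 lower in both libraries numbered 2, with a median library difference of 0.48 in the controls and 0.37 in the mutants. Over all genes tested 29.5% were higher and 36.3% lower in both. Among the 9 tailbud genes, ntlb was under 1 FPKM in both libraries numbered 1, so it was tested only because those numbered 2 were higher. The list's summed level was 190 FPKM in control 1, 261 FPKM in control 2, 183 FPKM in mutant 1 and 238.5 FPKM in mutant 2. Of the 20 presomitic and somite genes 17 were tested, and 9 were higher and 4 lower in both libraries numbered 2. Among the higher was msgn1, a regulator of presomitic cells, which was at 21.6 and 47.9 FPKM in wild type against 19.8 and 39.1 FPKM in mutants. The lower ones were ripply1, meox1, efnb2a and uncx4.1, a somite gene, which was at 10.2 and 6.91 FPKM in the wild-type libraries, compared with 12.6 and 6.90 FPKM in the mutant ones. Genotype differences in these lists were small, with 0 at an unadjusted p under 0.05 in either, medians of -0.04 (tailbud) and -0.03 (presomitic and somite), and the lowest p for foxc1b (-0.25), foxc1a (-0.18), tbx16 (0.21) and hoxb10a (-0.23). ripply1 (0.03), meox1 (-0.04), cdx4 (-0.12) and fgf8a (0.02) were the most abundant. The labels do not say how much tail each embryo lost, and its part in the her1 and her7 values was not tested.

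Not all clock or presomitic Notch genes followed the library number. Of the 37 tested genes, 10 (27.0%) were higher and 15 (40.5%) lower in both libraries numbered 2, against 29.5% and 36.3% of all genes. Only her1 and her7 were higher by over 0.4 on the log2 scale in both, as were 1.10% of all genes. The rest of the 10 were her3, hes6, her11, her13, her4.1, her8a, nrarpa and rbpjb. Library differences in controls and mutants were 0.11 and 0.32 for hes6, 0.32 and 0.08 for her11, and 0.20 and 0.03 for her13. dlc, which shares the clock with them, differed by 0.13 between the controls and by -0.21 between the mutants, and her12 by 0.00 and -0.08. her3, which Notch represses in zebrafish, was at 33.2 and 49.0 FPKM in the wild-type libraries, compared with 38.6 and 43.2 FPKM in the mutant ones, with library differences of 0.56 and 0.16. These shares and differences are descriptions, since the labels give the library number no meaning.

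Many ligands, receptors and regulators were low in the libraries numbered 2. Of the 10 tested ligands and receptors 6 were lower in both libraries numbered 2 and 0 were higher in both. The shares lower and higher in both were 36.3% and 29.5% over all genes tested, and 40.5% and 27.0% over the 37 genes. All 4 regulators were lower in both, but by unlike amounts. The library differences in controls and mutants were -0.32 and -0.18 for numb and -0.31 and -0.12 for numbl. They were -0.16 and -0.06 for lfng and only -0.006 and -0.043 for mib. dlb, a Delta gene of forming neurons, was at 12.6 and 8.89 FPKM in wild type against 12.0 and 9.06 FPKM in mutants. jag2 was at 17.1 and 12.9 FPKM in wild type against 17.8 and 13.9 FPKM in mutants. Both were low in control 2 and mutant 2 and overlapped between genotypes. hey1 shared this, with library differences of -0.21 in the controls and -0.38 in the mutants. So did 11 of the 16 tested neural plate and neuron genes, beside 36.3% of all genes, with median library differences of -0.27 and -0.17. Of the neural plate genes, sox19a differed by 0.04 and 0.09, sox2 by 0.02 and -0.17, and sox3 by -0.03 and -0.01. ebf3 was under 1 FPKM in both libraries numbered 2, so it is among the 11 only because those numbered 1 were higher.

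**Figure D4:**
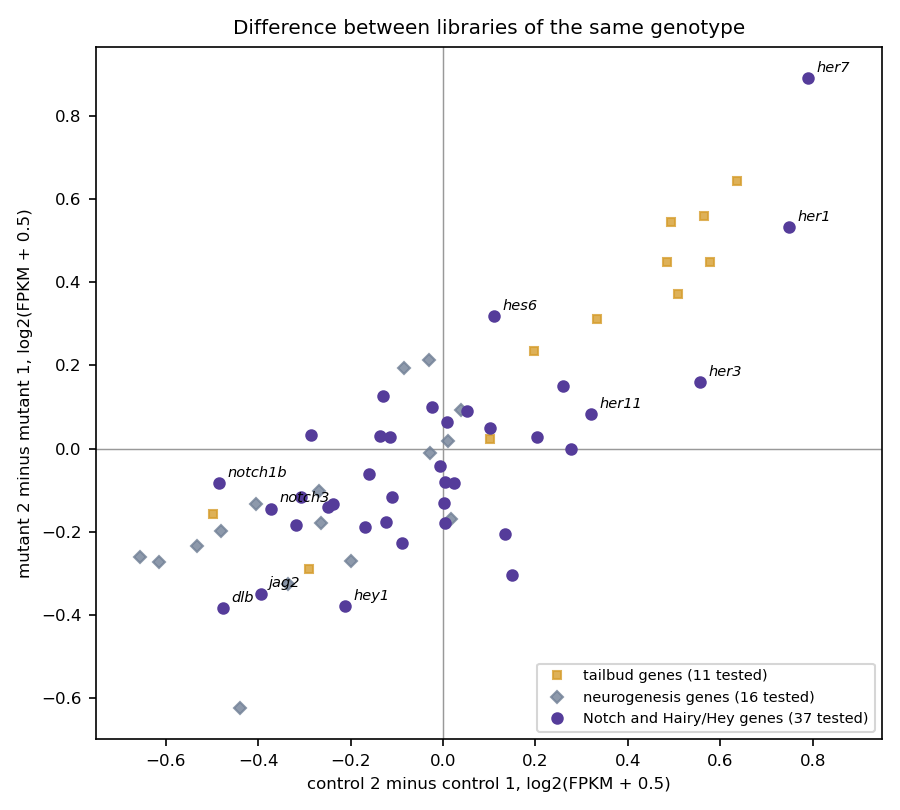
Difference of log2(FPKM + 0.5) between library 2 and library 1 in the controls (horizontal) and in the mutants (vertical), for the 37 tested Notch and Hairy/Hey genes (purple circles), 11 tailbud genes (yellow squares) and 16 neural plate and neuron genes (grey diamonds). her1 and her7 sit at the upper right with most tailbud genes, and dlb, jag2 and hey1 at the lower left with most neuron genes. The neural plate genes sox2, sox3 and sox19a lie nearer the centre.

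The rest of the pathway's machinery was compared through 57 further genes, of which 45 were matched in the table and 36 tested. They were 20 higher and 16 lower in the mutants, with 0 at an unadjusted p under 0.05, a median of 0.004 and a range of -0.12 to 0.19. Of the 8 tested genes of Notch maturation and glycosylation 4 were higher and 4 lower, with EOGT at 0.19, rfng at 0.14, the fucose transferase gene pofut1 at -0.004, and gmds, whose product helps make GDP-fucose, at 0.005. This list also holds the protease gene furina and the GDP-fucose carrier gene slc35c1. Of the 8 tested cleavage genes 4 were higher and 4 lower, among them the gamma-secretase genes psenen (-0.03) and aph1b (-0.01) and the protease gene adam17a (0.07). The 4 tested trafficking genes split evenly, with sel1l at 0.10, neurlb at -0.12 and DTX2 at -0.08. Of 16 co-activators and co-repressors of Rbpj 10 were higher and 6 lower, with si:dkey-42p8.3, which the reference table names tle2b, at 0.16, aes at 0.18, hdac1 at -0.01 and ctbp1 at 0.02.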

How the data were processed

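FPKM estimates of every gene, with 95% bounds, an estimate status and a Zv9 locus, were deposited by the authors in 1 table. Its columns carry the name RPKM and a last line the name FPKM, per the file headers. Per the submitters' processing notes the genome build was danRer7 (Zv9) and the tools were Cuffdiff 2.0.2, Cufflinks 2.1.1, TopHat and TopHat2 2.0.8; the sources used here do not give their order. Nor do they give strand handling, and read sharing among alike copies could move values between them.

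No rescaling was done before the transform log2(FPKM + 0.5), which understates changes of low genes. Of 32538 genes, 138 had an estimate status other than OK and none of these was among the 46 (0 of 46). With a mean of at least 1 FPKM required, 13448 genes entered the test, made by limma 3.58.1 under R 4.3.3 (genotype only, mean-variance trend, two-sided, Benjamini-Hochberg over all genes, 4.66 degrees of freedom), after tests on simulated data. Of the 46 gene IDs, 43 had a symbol in the reference table. Figures were drawn with matplotlib 3.10.9. Genes and lists were chosen with earlier results of these data known. Values per library were given for the genes of lowest p, highest level per role, chromosome 5 or largest library difference, and the her4 copies, mib and her8a, her13 and msgn1; from the other lists, the 2 of lowest p and the 2 of highest level, 1 of which is not reported here. cdh5, tie1, kdrl, tie2, fli1b, fli1a, kdr, flt4, msgn1, ntlb, uncx4.1, efnb2a, furina and slc35c1 were chosen after their values were seen. Alternatives were other pseudocounts, minimum levels, scalings, variance models, a replicate block, leaving out short loci or single libraries, and summing the her4 copies.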

Additional observations from a re-analysis of the deposited data

How the results depend on the processing

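The number of Notch and Hairy/Hey genes past an adjusted p of 0.05 was 0 under every alternative run. The number with an unadjusted p under 0.05 was 5 of 46 with no minimum level, beside 3.98% of all genes. With a replicate block it was 5 of 37, beside 4.54% of all genes. The main fit had 3 of 37, beside 1.99%. Over all genes the number past an adjusted p of 0.05 was 1 with no minimum, 16 with robust empirical Bayes, and 23 to 45 with 1 library left out. The replicate block added her12 and her4.1 to hey2, notch1a and nrarpb, and no minimum added her12 and mib. her4.1 also came under 0.05 with a pseudocount of 0.1, median-ratio rescaling, robust empirical Bayes, no mean-variance trend, or short loci left out. her4.3 did so with quantile normalization and with no mean-variance trend, where nrarpb was lost. Deviations of same-numbered libraries correlated at 0.347 across 13200 genes, but with 2 pairs and no meaning given to the number this does not pair the samples. Among the 37 genes, signs turned after median-ratio rescaling for her3 (-0.0027) and nrarpa (-0.0092), after quantile normalization for her9 (0.027), and with a pseudocount of 1 for her15.2 (0.00012); the cause was not tested. With 1 library left out the sign turned for 22 of the 37, whose differences ranged from -0.084 to 0.15 for dla, -0.26 to 0.22 for dlb, -0.056 to 0.15 for dlc, -0.51 to 0.24 for her1, -0.098 to 0.22 for her11, -0.050 to 0.13 for her15.1, -0.15 to 0.15 for her15.2, -0.26 to 0.29 for her3, -0.022 to 0.26 for her5, -0.0011 to 0.19 for her6, -0.55 to 0.34 for her7, -0.12 to 0.11 for her9, -0.19 to 0.12 for hes6, -0.27 to 0.11 for hey1, -0.080 to 0.052 for jag1a, -0.12 to 0.27 for jag2, -0.19 to 0.29 for notch1b, -0.14 to 0.11 for notch2, -0.066 to 0.31 for notch3, -0.034 to 0.056 for nrarpa, -0.0057 to 0.31 for numb and -0.21 to 0.096 for numbl. No scaling moved the median of all genes by over 0.1. Low values limit her4.1 and her4.3 among other genes.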
